A study of Homo sapiens with 8 samples.

Results

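The genes of the epithelial-mesenchymal transition (EMT) were followed in MIV-Luc cells, a luciferase-expressing line of the metastatic breast cancer cell MCF10CA1a. A list of 38 EMT genes was looked up by symbol in the expression table, and 37 of them were found. They were measured by 40 features of the 29141 that were tested, a feature being one gene-level value per array, and FN1, ACTA2 and TPM1 had 2 features each. TWIST2 was not listed under its symbol, and one feature without a symbol that carried its accession lay between 5.74 and 6.13 on all arrays, with a log2 fold change of 0.01 for IL-13 and 0.02 for the knockdown. The cells carried the puromycin-resistance vector pLKO with either a scrambled hairpin (shSCR) or hairpin #2 against the interleukin-13 receptor IL13Rα2 (shIL13Rα2), and each transduced line was either mock-treated (− IL-13) or exposed for 16 h to IL-13 at 20 ng/ml (+ IL-13). This made 4 groups of 2 arrays, named A and B within each group. All groups shared the luciferase gene, the vector, and a medium with horse serum, insulin, EGF, cholera toxin and hydrocortisone. Each hairpin on these arrays was present in a single transduced line, so an effect of the loss of IL13Rα2 and an effect of the line or of other targets of the hairpin cannot be told apart.

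EMT is the process by which epithelial cells loosen their junctions and take on the shape and motility of mesenchymal cells. E-cadherin (CDH1), claudins and occludin hold epithelial sheets together, and the transcription factors of the SNAI, TWIST and ZEB families repress them. The GRHL and OVOL factors, the ESRP splicing regulators and the miR-200 family oppose this switch. Vimentin (VIM), fibronectin (FN1), fibrillar collagens and matricellular proteins, which are secreted into the matrix and steer adhesion rather than build it, are the usual mesenchymal readouts.

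Values were log2 RMA signals, for which the array medians lay between 5.02 and 5.06 and the median SD within groups was 0.10. Values compare one gene across arrays and not one gene with another. IL13RA2, the target of the hairpin, read 8.07 and 8.09 in shSCR (− IL-13), 9.36 and 9.33 in shSCR (+ IL-13), 6.52 and 6.34 in shIL13Rα2 (− IL-13) and 8.23 and 8.15 in shIL13Rα2 (+ IL-13). It was lower with the hairpin in mock-treated cells (log2 fold change -1.65, adjusted p = 0.0105 from limma) and in IL-13-treated cells (-1.16, adjusted p = 0.0241 from limma). Knockdown cells given IL-13 read slightly above mock-treated control cells. The basal keratin KRT5 read 9.46 to 9.98 and the luminal keratin KRT8 9.81 to 10.41 over the 8 arrays. The hormone receptor gene PGR and 1 of 2 ESR1 features were in the dimmest 30% of tested features. Of 5 fibroblast markers, PDGFRA, DCN and LUM were in the dimmest 30%, whereas PDGFRB (4.40 to 4.78) and THY1 (4.24 to 4.49) were above it. Some mammary lineage markers moved with the groups. The basal regulator TP63 passed for IL-13 (log2 fold change 0.84, adjusted p = 0.0463 from limma) and for the knockdown (0.94, adjusted p = 0.0225 from limma), and was the only one of 7 basal features to pass in either. Of 8 luminal features, 1 passed for the knockdown, the brighter of 2 KRT18 features (-0.60, adjusted p = 0.0454 from limma), while the other KRT18 feature did not (-0.30, adjusted p = 0.327 from limma). The part of lineage in the EMT results was not tested.

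Of the EMT genes, 4 passed a test in at least one comparison, and all of them encode matrix-associated proteins or vimentin. Thrombospondin 1 (THBS1) and tenascin C (TNC) rose and osteonectin (SPARC) fell with IL-13 averaged over both hairpins. VIM and TNC fell with the knockdown averaged over both treatments. No cadherin, EMT transcription factor, epithelial transcription factor, splicing regulator, claudin, collagen or contractile gene passed. Of the 40 EMT features, 3 had an adjusted p under 0.05 for IL-13 (0.233% of all tested features did) and 2 for the knockdown (0.446% of all). These calls were thin: without any 1 of the 8 arrays, 0 EMT features passed in either comparison, while all 8 refits of each kept the direction of each of the 4 genes. The same refits called 23 to 33 features of the whole table for IL-13, against 68 with all arrays, and 22 to 29 for the knockdown, against 130.

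**Figure D1:**
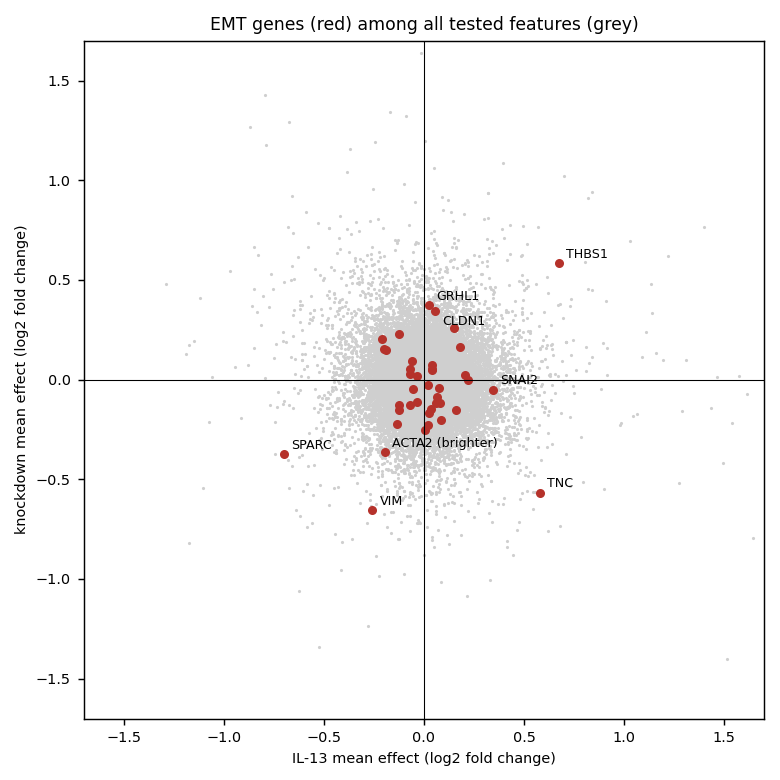
Log2 fold change with IL-13 (horizontal) against log2 fold change with the knockdown (vertical), both averaged over the other factor, for 40 EMT features (red) and all tested features (grey; 4 lie outside the plotted range). THBS1 lies at 0.67 and 0.58, SPARC at -0.70 and -0.37, TNC at 0.58 and -0.57 and VIM at -0.26 and -0.65, while most EMT features lie near the origin.

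THBS1, a matricellular glycoprotein that binds CD36 and CD47 and activates latent TGF-β, had the largest change between any 2 groups among the EMT genes. Its values were 8.61 and 8.32 in shSCR (− IL-13), 9.24 and 9.24 in shSCR (+ IL-13), 9.12 and 9.18 in shIL13Rα2 (− IL-13), and 9.82 and 9.63 in shIL13Rα2 (+ IL-13). The mock-treated control arrays were the lowest pair and the arrays with both hairpin and IL-13 the highest, and no array of these groups overlapped. THBS1 rose 1.60-fold with IL-13 (log2 fold change 0.67, SE 0.09, 95% interval 0.46 to 0.89, adjusted p = 0.0440 from limma). The knockdown effect was of similar size (0.58, 95% interval 0.37 to 0.80) but did not pass (adjusted p = 0.0532 from limma). It did pass after a further quantile normalisation, without the dimmest 30% of features and with 1 feature per gene (adjusted p = 0.0367, 0.0275 and 0.0225 from limma). Cells with both hairpin and IL-13 held 2.39 times the THBS1 message of mock-treated control cells (log2 fold change 1.26, SE 0.13, 95% interval 0.95 to 1.56, adjusted p = 0.0152 from limma). Without single arrays that last value ranged from 1.11 to 1.41 with an adjusted p of 0.0436 to 0.111 from limma, and it passed in 4 of 8 refits, those without an array of shSCR (+ IL-13) or shIL13Rα2 (− IL-13). The IL-13 effect without single arrays was 0.60 to 0.75 with an adjusted p of 0.0758 to 0.205 from limma, and the call was also lost when the arrays were shifted to one median (adjusted p = 0.0602 from limma).

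SPARC, a collagen-binding protein that shapes basement membranes and is a mesenchymal marker in mammary cells, went the other way. It read 7.86 and 7.74 in shSCR (− IL-13), 7.08 and 7.22 in shSCR (+ IL-13), 7.38 and 7.57 in shIL13Rα2 (− IL-13) and 6.83 and 6.63 in shIL13Rα2 (+ IL-13). All 4 IL-13-treated arrays lay below all 4 mock-treated arrays. SPARC fell by 38.4% with IL-13 (log2 fold change -0.70, SE 0.09, 95% interval -0.91 to -0.49, adjusted p = 0.0343 from limma). Its knockdown effect was -0.37 (95% interval -0.58 to -0.16) and did not pass (adjusted p = 0.184 from limma). Between the extreme groups it fell by 52.4% (log2 fold change -1.07, SE 0.13, adjusted p = 0.0250 from limma). Without single arrays the adjusted p from limma was 0.0967 to 0.175 for IL-13 and 0.0555 to 0.213 between the extreme groups. In these bulk cultures, fewer cells that make a message and less message per cell cannot be told apart.

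TNC, a hexameric matrix protein of wound edges and tumour stroma, was the EMT gene that passed in both averaged comparisons, in opposite directions. It read 7.41 and 7.29 in shSCR (− IL-13) and 8.06 and 8.04 in shSCR (+ IL-13). In shIL13Rα2 cells it read 6.93 and 6.87 without IL-13 and 7.34 and 7.38 with it. Within each line the IL-13-treated pair lay above the mock-treated pair, and each knockdown pair lay below the control pair of the same treatment. TNC rose 1.49-fold with IL-13 (log2 fold change 0.58, SE 0.07, 95% interval 0.41 to 0.75, adjusted p = 0.0318 from limma) and fell by 32.5% with the knockdown (log2 fold change -0.57, SE 0.07, 95% interval -0.74 to -0.40, adjusted p = 0.0238 from limma). Between knockdown cells with IL-13 and mock-treated control cells the log2 fold change was 0.01, with a 95% interval for the fold of 0.854 to 1.19. Without single arrays the adjusted p from limma ranged from 0.110 to 0.173 for IL-13 and from 0.0879 to 0.118 for the knockdown.

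VIM, the intermediate filament protein of mesenchymal cells and a widely used EMT marker, was lower in the knockdown cells. It read 8.55 and 8.40 in shSCR (− IL-13), 8.23 and 8.38 in shSCR (+ IL-13), 7.90 and 7.91 in shIL13Rα2 (− IL-13) and 7.53 and 7.60 in shIL13Rα2 (+ IL-13). All 4 knockdown arrays lay below all 4 control arrays. VIM fell by 36.4% with the knockdown (log2 fold change -0.65, SE 0.08, 95% interval -0.84 to -0.47, adjusted p = 0.0214 from limma). With IL-13 its log2 fold change was -0.26 and did not pass (adjusted p = 0.408 from limma). Between knockdown cells with IL-13 and mock-treated control cells it fell by 0.91 on the log2 scale (adjusted p = 0.0283 from limma), which is short of the 2-fold change required for a call in a comparison of 2 groups. Without single arrays the knockdown value was -0.69 to -0.61, with an adjusted p of 0.0836 to 0.113 from limma.

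**Figure D2:**
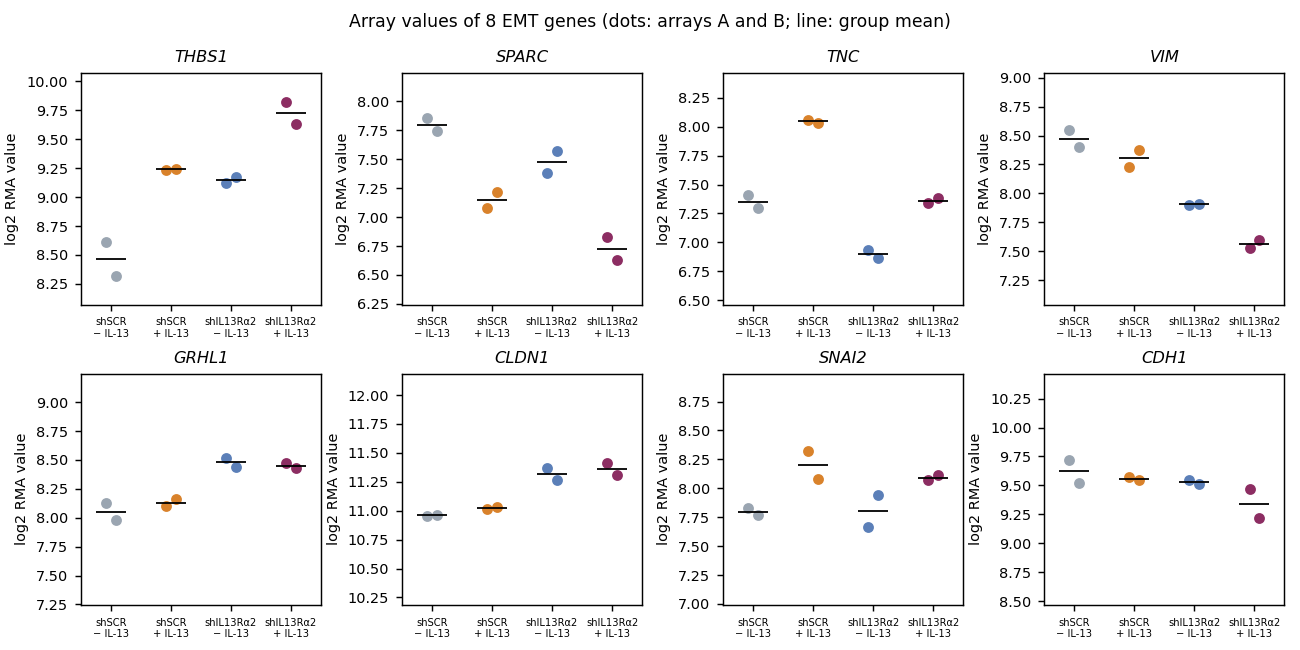
Log2 RMA values of 8 EMT genes in the 4 groups (dots, arrays A and B; horizontal line, group mean; each panel spans 2 log2 units). THBS1 climbs from 8.61 and 8.32 in mock-treated control cells to 9.82 and 9.63 with hairpin and IL-13, SPARC and VIM descend, TNC rises with IL-13 and falls with the hairpin, GRHL1 and CLDN1 are higher in both knockdown groups, SNAI2 is higher in both IL-13-treated groups, and CDH1 is lowest with hairpin and IL-13.

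The RefSeq promoter tables (GRCh38.p14) held an entry for 22 of the 38 genes, among them the 4 that passed. The 250 bases before the start site of each of these 4 are shown, since they are the EMT genes that passed a test with all arrays. IL-13 acts through STAT6, which binds palindromes of the form TTCNNNGAA or TTCNNNNGAA, and capitals mark a match to either form.
SPARC, chr5:151686916-151687165, minus strand: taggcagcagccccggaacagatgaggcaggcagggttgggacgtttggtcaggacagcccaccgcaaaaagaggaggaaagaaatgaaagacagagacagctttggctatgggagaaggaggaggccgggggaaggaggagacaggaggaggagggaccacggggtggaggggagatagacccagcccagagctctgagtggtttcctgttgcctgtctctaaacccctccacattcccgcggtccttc
THBS1, chr15:39580829-39581078, plus strand: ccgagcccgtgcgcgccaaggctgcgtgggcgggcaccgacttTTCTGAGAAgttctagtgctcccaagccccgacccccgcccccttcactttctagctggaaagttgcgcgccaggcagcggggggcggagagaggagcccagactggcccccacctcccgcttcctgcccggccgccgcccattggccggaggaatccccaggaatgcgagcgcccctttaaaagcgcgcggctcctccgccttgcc
TNC, chr9:115118158-115118407, minus strand: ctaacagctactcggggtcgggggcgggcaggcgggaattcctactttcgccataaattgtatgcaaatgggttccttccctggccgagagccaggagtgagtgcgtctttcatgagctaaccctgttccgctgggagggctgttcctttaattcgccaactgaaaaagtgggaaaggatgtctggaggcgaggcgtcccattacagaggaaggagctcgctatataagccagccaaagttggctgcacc
VIM, chr10:17227991-17228240, plus strand: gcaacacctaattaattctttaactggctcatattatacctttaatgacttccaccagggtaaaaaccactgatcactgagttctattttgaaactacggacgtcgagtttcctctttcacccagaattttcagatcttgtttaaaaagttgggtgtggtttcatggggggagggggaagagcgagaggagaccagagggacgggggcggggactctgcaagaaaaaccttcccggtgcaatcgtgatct

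Only the THBS1 window of these 4 held a STAT palindrome, TTCTGAGAA at 207 to 199 bases before the start. Over all windows, searched on both strands, TTCNNNGAA was present in 6.57% and TTCNNNNGAA in 5.38% of 35116 entries. Of the 22 EMT genes with an entry, THBS1 and POSTN held the former and OCLN the latter. The E-box CACCTG, the sequence that SNAI and ZEB repressors bind, was present in the windows of CLDN7, OCLN, RAB25 and ZEB1 (4 of 22 genes). Of all entries, 17.49% held it. TATAAA was present in the windows of CDH2, CTGF and POSTN (3 of 22 genes) and in 10.72% of all entries. The 22 genes had 33 entries, and a gene was counted if any of its entries matched. Counts of genes and shares of entries are therefore not directly comparable. A gene not named for a motif, such as CDH1, either held no match or had no entry. A match describes the letters in the window and is not a measured binding site.

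Among the EMT-inducing transcription factors, 0 of 5 features passed for IL-13 or for the knockdown. SNAI2 (Slug), a zinc-finger repressor of CDH1 that is also native to basal mammary cells, read 7.83 and 7.77 in shSCR (− IL-13), 8.32 and 8.08 in shSCR (+ IL-13), 7.66 and 7.94 in shIL13Rα2 (− IL-13) and 8.07 and 8.11 in shIL13Rα2 (+ IL-13). The 4 IL-13-treated arrays were above the 4 mock-treated ones, by 0.35 on the log2 scale (SE 0.10, 95% interval 0.12 to 0.57), but the adjusted p was 0.352 from limma. ZEB2, a repressor of the same family as ZEB1, read 4.09 and 4.17 in mock-treated control cells and 4.33 to 4.70 elsewhere, with a knockdown effect of 0.26 (SE 0.10, adjusted p = 0.389 from limma). The median of the negative control features was 4.19, above the ZEB2 values of mock-treated control cells. ZEB1 was among the dimmest 30% of tested features, at 3.62 to 4.02, with effects of 0.02 for IL-13 and -0.17 for the knockdown. SNAI1 ranged from 4.25 to 4.57 and TWIST1 from 6.47 to 6.70, with IL-13 effects of 0.04 and 0.07 and 95% intervals within 2-fold either way.

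The cadherins showed no switch from the epithelial to the neural form. CDH1 read 9.72 and 9.52 in shSCR (− IL-13), 9.57 and 9.54 in shSCR (+ IL-13), 9.55 and 9.52 in shIL13Rα2 (− IL-13) and 9.47 and 9.21 in shIL13Rα2 (+ IL-13). Both arrays of the last group lay below the other 6 arrays, and the other groups overlapped. The last group differed from mock-treated control cells by -0.28 (95% interval -0.57 to 0.01, adjusted p = 0.538 from limma). Its IL-13 effect was -0.13 (95% interval -0.33 to 0.08) and its knockdown effect -0.15 (95% interval -0.36 to 0.05), neither of which passed (adjusted p = 0.734 and 0.574 from limma). N-cadherin (CDH2) read 5.15 and 5.15, 5.44 and 5.21, 4.93 and 5.10, and 5.13 and 5.20 in the same order of groups, with effects of 0.16 for IL-13 and -0.15 for the knockdown. P-cadherin (CDH3), the cadherin of basal mammary cells, ranged from 7.27 to 7.71 and had a knockdown effect of -0.20 (95% interval -0.41 to 0.00, adjusted p = 0.451 from limma).

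On the epithelial side, the largest differences were in GRHL1 and CLDN1, and both accompanied the hairpin. GRHL1, a grainyhead factor that drives junction and barrier genes, read 8.13 and 7.98 in shSCR (− IL-13) and 8.10 and 8.16 in shSCR (+ IL-13), against 8.52 and 8.44 in shIL13Rα2 (− IL-13) and 8.47 and 8.43 in shIL13Rα2 (+ IL-13). The 4 knockdown arrays lay above the 4 control arrays, with a log2 fold change of 0.37 (SE 0.08, 95% interval 0.20 to 0.55) that did not pass (adjusted p = 0.119 from limma). Its IL-13 effect was 0.02 (95% interval -0.15 to 0.20). Claudin 1 (CLDN1), a strand-forming protein of tight junctions, read 10.96 and 10.96, 11.02 and 11.03, 11.37 and 11.26, and 11.42 and 11.31 in the same order, with no overlap between the constructs. Its knockdown effect was 0.35 (SE 0.07, 95% interval 0.18 to 0.52, adjusted p = 0.131 from limma). Both passed for the knockdown when limma was given an intensity trend and a robust prior, together with ESRP1, SPARC and THBS1, besides VIM and TNC. How many of all tested features passed under that setting was not counted.

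Other epithelial genes did not follow GRHL1 and CLDN1. Claudin 7 (CLDN7) was at 7.32 to 7.45 in control arrays and 7.11 to 7.21 in knockdown arrays, without overlap and in the opposite direction (log2 fold change -0.25, SE 0.07, adjusted p = 0.270 from limma). The splicing regulator ESRP1, which keeps the epithelial isoforms of genes such as CD44 and FGFR2, was at 10.60 to 10.71 in control arrays and 10.35 to 10.51 in knockdown arrays (-0.23, SE 0.08, adjusted p = 0.346 from limma). In all, 5 EMT features had knockdown arrays wholly above (GRHL1, CLDN1) or wholly below (VIM, CLDN7, ESRP1) the control arrays, and 7.13% of all tested features did so in either direction. For IL-13 the count was 3 (THBS1 and SNAI2 above, SPARC below), against 4.78% of all features. GRHL2, a relative of GRHL1, read 7.23 and 7.29 in mock-treated control cells and 7.78 and 7.43 with hairpin and IL-13, which did not pass (0.34, adjusted p = 0.470 from limma). The OVOL1 repressor of mesenchymal genes ranged from 4.78 to 5.19 (IL-13 -0.07, knockdown -0.13), and OVOL2, ESRP2, CLDN3, CLDN4, OCLN and RAB25 had effects between -0.13 and 0.10 in both comparisons.

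**Figure D3:**
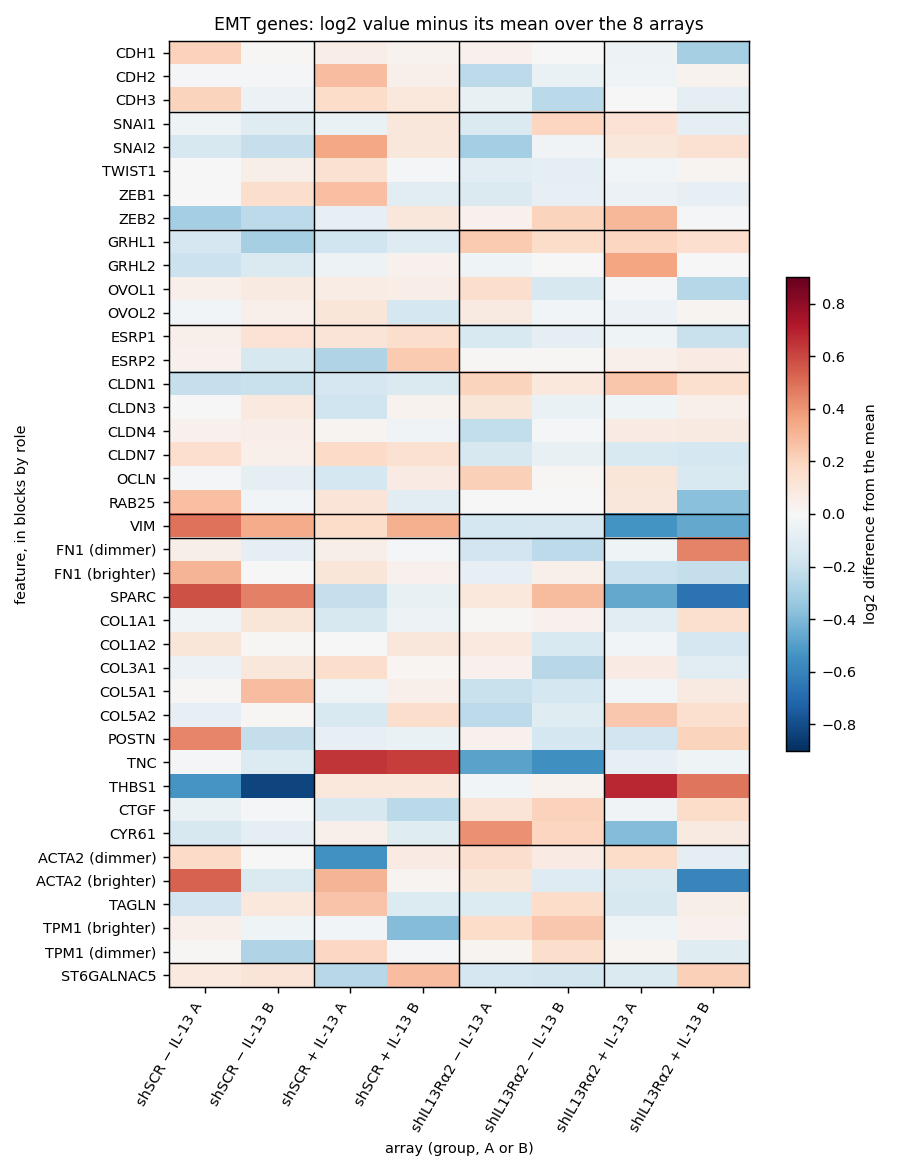
Log2 value minus the mean over the 8 arrays (colour; red above, blue below the mean) for 40 EMT features in rows, in blocks by role, and the 8 arrays in columns by group. Both arrays of a group share a strong colour in the rows of TNC, THBS1, SPARC and VIM, whereas most other rows are pale or, as in POSTN and ACTA2, coloured in single arrays.

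No other matrix gene passed. Of the 13 matrix and matricellular features, 2 passed upwards and 1 downwards for IL-13, and 0 upwards and 1 downwards for the knockdown, all of them described above. The brighter feature of FN1, the fibrillar adhesion protein of mesenchymal matrix, read 5.84 and 5.53 in shSCR (− IL-13), 5.64 and 5.57 in shSCR (+ IL-13), 5.45 and 5.57 in shIL13Rα2 (− IL-13) and 5.34 and 5.31 in shIL13Rα2 (+ IL-13). Its knockdown effect was -0.22 (SE 0.09, adjusted p = 0.425 from limma). The dimmer feature of FN1, at 4.02 to 4.70, had a knockdown effect of 0.00 and an IL-13 effect of 0.22, so the 2 features did not move together. The collagens COL1A1, COL1A2, COL3A1, COL5A1 and COL5A2 had effects between -0.15 and 0.20 in both comparisons. Periostin (POSTN) was in the dimmest 30% of features. CTGF and CYR61, immediate targets of the YAP coactivator now named CCN2 and CCN1, had knockdown effects of 0.23 (adjusted p = 0.364 from limma) and 0.15. CYR61 read 5.78 and 5.84 in shSCR (− IL-13), 5.97 and 5.81 in shSCR (+ IL-13), 6.34 and 6.12 in shIL13Rα2 (− IL-13) and 5.53 and 6.01 in shIL13Rα2 (+ IL-13). It was thus highest in mock-treated knockdown cells, by 0.42 over mock-treated control cells (adjusted p = 0.506 from limma), and its IL-13 effect in knockdown cells was -0.46 (adjusted p = 0.664 from limma). It had the lowest unadjusted p of the EMT features for a difference in IL-13 response between the lines (-0.54, 95% interval -1.09 to 0.02).

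The contractile genes and the sialyltransferase gave no call. The brighter feature of ACTA2, smooth muscle actin, spread widely between arrays of one group, at 7.27 and 6.61 in shSCR (− IL-13) and 6.61 and 6.15 in shIL13Rα2 (+ IL-13), and its knockdown effect was -0.36 with a 95% interval of -0.76 to 0.03. The 2 features of TPM1, an actin-filament tropomyosin, had knockdown effects of 0.20 and 0.05. TAGLN (transgelin) was in the dimmest 30% of features. ST6GALNAC5, a sialyltransferase linked to brain metastasis of breast cancer, ranged from 4.48 to 5.00, with effects of 0.06 for IL-13 and -0.12 for the knockdown.

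**Figure D4:**
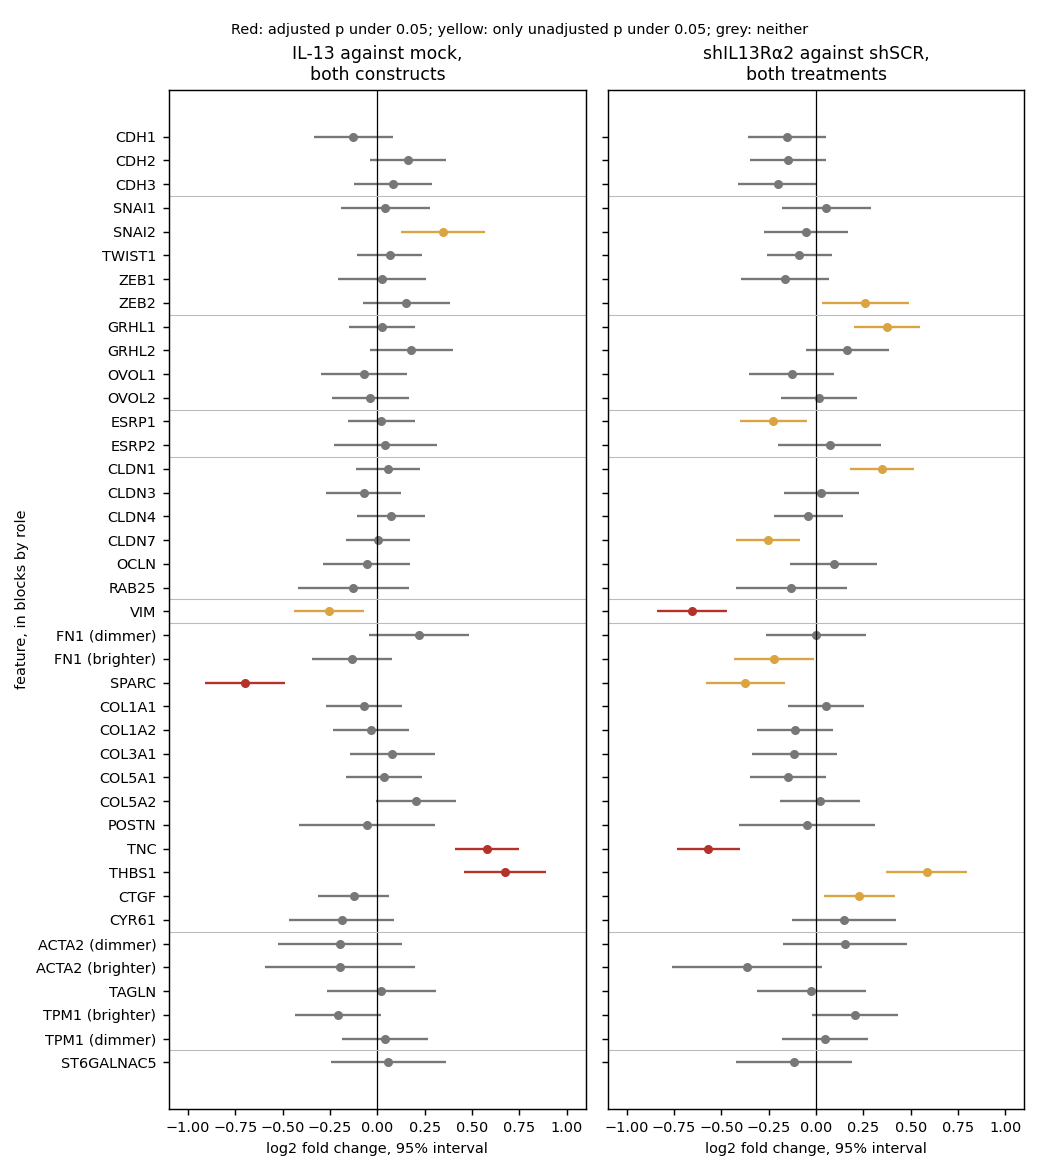
Log2 fold change (dot) and 95% interval (line) from limma for 40 EMT features, in blocks by role, for IL-13 against mock over both constructs (left) and shIL13Rα2 against shSCR over both treatments (right). Red intervals have an adjusted p under 0.05 (SPARC, TNC and THBS1 on the left, VIM and TNC on the right), yellow ones only an unadjusted p under 0.05, and all 40 intervals on each side stay within 2-fold either way.

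The separate comparisons of 2 groups gave few calls at an adjusted p under 0.05 and a change above 2-fold. For knockdown cells with IL-13 against mock-treated control cells, 2 of 40 EMT features were called (THBS1 higher, SPARC lower), against 0.154% of all tested features. With VIM, 3 had an adjusted p under 0.05 at any fold (0.285% of all), and 9 an unadjusted one (9.56% of all). In the other pairs limma called 0 EMT features, where 0.0583% of all features were called for IL-13 in control cells, 0.0652% for the knockdown without IL-13, 0.0618% for IL-13 in knockdown cells and 0.0515% for the knockdown under IL-13. At an unadjusted p under 0.05 those pairs held 4, 9, 7 and 8 EMT features, against 6.79%, 9.51%, 6.93% and 7.07% of all features. The one-way analysis of variance that the methods name, after adjustment, called 0 EMT features in each pair. How many of all tested features it called was not counted, so this 0 is not read as a result about the EMT genes. These comparisons share groups, so their counts are not independent of each other.

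The response of the EMT genes to IL-13 was also compared between the lines. No EMT feature passed this interaction test in limma, 0 had an unadjusted p under 0.05 (4.47% of all features did), and 0 of all 29141 features passed after adjustment. For THBS1 the response of knockdown cells differed from that of control cells by -0.19 (95% interval -0.63 to 0.24) on the log2 scale. The difference was -0.10 (-0.52 to 0.32) for SPARC, -0.24 (-0.57 to 0.10) for TNC and -0.17 (-0.54 to 0.20) for VIM. These intervals leave room for sizeable differences, so a like response in both lines was not shown.

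The 40 EMT features pool epithelial and mesenchymal genes, which change in opposite directions in EMT. Their pooled direction therefore cannot show or exclude a shift, and none was tested. Their median log2 fold change was 0.02 for IL-13 and -0.04 for the knockdown, against 0.01 and -0.01 over all tested features. For IL-13, 23 were positive and 17 negative, and for the knockdown 17 and 23. Within roles, IL-13 gave 2 up and 1 down for cadherins, 5 and 0 for EMT-inducing factors, and 2 and 2 for epithelial factors. Splicing regulators split 2 and 0, tight junction genes 3 and 3, matrix features 6 and 7, and contractile features 2 and 3. For the knockdown, cadherins split 0 and 3, EMT-inducing factors 2 and 3, and epithelial factors 3 and 1. Splicing regulators split 1 and 1, tight junction genes 3 and 3, matrix features 5 and 8, and contractile features 3 and 2. Regardless of sign, their median log2 change was 0.08 for IL-13 and 0.15 for the knockdown, against 0.09 and 0.09 over all features. At an unadjusted p under 0.05 there were 5 for IL-13 and 11 for the knockdown, of 40, where 8.73% and 11.3% of all features were below it. Neighbouring genes of the list (CDH3 and CDH1 on chromosome 16, COL3A1 and COL5A2 on 2, CLDN3 and CLDN4 on 7) included no gene that passed.

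A wider set of 86 EMT-related genes outside the list was read in the same fit, through 89 features. For IL-13, 1 rose and 0 fell, where 0.233% of all tested features passed. For the knockdown 2 rose and 1 fell, where 0.446% of all passed. This set was chosen with earlier results of these data known. The study's own lists of changed genes already held FAP for IL-13 and COL12A1 for the knockdown, so these calls are not independent findings. Fibroblast activation protein (FAP), a cell-surface protease of stromal fibroblasts, rose 2.97-fold with IL-13 (log2 fold change 1.57, SE 0.08, adjusted p = 0.000471 from limma). It read 6.89 and 7.10 in shSCR (− IL-13), 8.38 and 8.36 in shSCR (+ IL-13), 6.77 and 6.87 in shIL13Rα2 (− IL-13) and 8.52 and 8.65 in shIL13Rα2 (+ IL-13), and was called within control cells (1.38, adjusted p = 0.0135 from limma) and within knockdown cells (1.77, adjusted p = 0.00343 from limma). The fibroblast markers PDGFRA (3.67 to 3.93), DCN (2.41 to 3.13) and LUM (2.16 to 2.53) were in the dimmest 30%, PDGFRB and THY1 were not, and 0 of these 5 markers passed for IL-13, with log2 fold changes between -0.09 and 0.18. The ecto-nucleotidase NT5E (CD73), a mesenchymal surface marker, was at 9.34 to 9.72 in control arrays and 8.31 to 8.84 in knockdown arrays. It fell by 48.3% with the knockdown (log2 fold change -0.95, SE 0.07, adjusted p = 0.00268 from limma). COL12A1, a fibril-associated collagen, was at 7.08 to 7.34 in control arrays and 8.05 to 8.19 in knockdown arrays, and rose 1.89-fold (0.92, SE 0.08, adjusted p = 0.00434 from limma). EHF, an ETS factor of epithelial cells, rose 1.43-fold (0.52, SE 0.08, adjusted p = 0.0442 from limma). The averaged effects of FAP (IL-13), NT5E and COL12A1 (knockdown) kept an adjusted p under 0.05 without any 1 of the 8 arrays (highest adjusted p of 0.00758, 0.0299 and 0.0413 from limma), whereas that of EHF held in 0 of 8 refits. Within control cells FAP passed in 4 of 8 refits (adjusted p up to 0.151 from limma) and within knockdown cells in 5 of 8 (up to 0.0757).

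**Figure D5:**
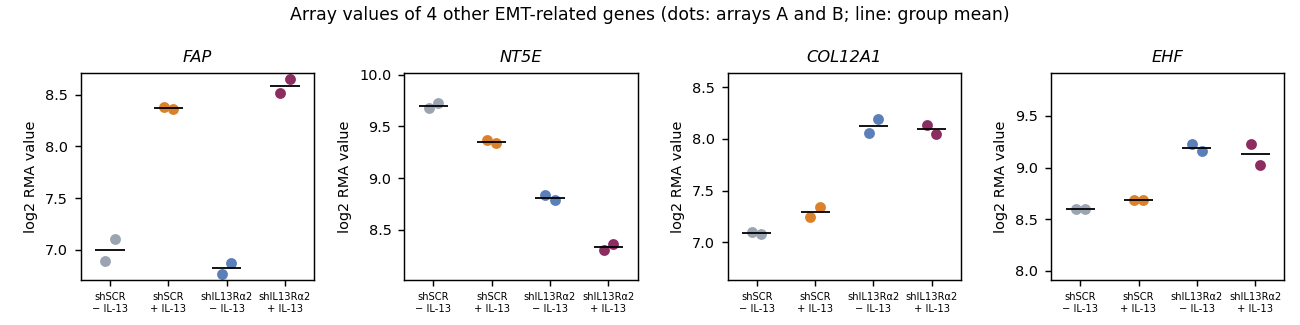
Log2 RMA values of FAP, NT5E, COL12A1 and EHF in the 4 groups (dots, arrays A and B; horizontal line, group mean; each panel spans 2 log2 units). FAP is at 8.36 to 8.65 in the IL-13-treated groups and at 6.77 to 7.10 in the mock-treated groups, NT5E is lower and COL12A1 and EHF are higher in both knockdown groups.

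Among the epithelial microRNA genes, 0 of 6 passed for IL-13 or for the knockdown. The miR-200 family targets ZEB1 and ZEB2 and falls into a pair of seed groups (bases 2 to 8 of the mature strand, in capitals), of which miR-200b, miR-200c and miR-429 share one and miR-200a and miR-141 the other. miR-205, which targets the same factors, has a seed of its own. The 3 seeds are shown for reference.
hsa-miR-200c-3p: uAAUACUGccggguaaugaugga
hsa-miR-141-3p: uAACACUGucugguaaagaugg
hsa-miR-205-5p: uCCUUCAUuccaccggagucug

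The array values of these genes are not taken as levels of the mature strands. MIR205, named here because of its value, read 6.48 and 6.24 in shSCR (− IL-13), 6.28 and 6.30 in shSCR (+ IL-13), 5.49 and 5.71 in shIL13Rα2 (− IL-13) and 5.82 and 5.42 in shIL13Rα2 (+ IL-13). All knockdown arrays lay below all control arrays, by 0.71 on the log2 scale (SE 0.12), just short of passing (adjusted p = 0.0565 from limma). MIR200A, MIR200C and MIR141 were in the dimmest 30% of features.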

How the data were processed

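Total RNA of 8 MIV-Luc cultures (2 biological replicates for each of 4 conditions, per the methods) was hybridised to Affymetrix arrays, which the labels name as exon arrays, although the feature numbers and their count resemble a gene-level design and the array version was not settled here. The authors normalised the arrays by RMA in the Affymetrix Expression Console (version 1, per the submitters' processing notes) and deposited log2 values per gene-level feature. Genome build and annotation are not given in the sources used here. The table marks columns by group only, so arrays were named A and B in column order. Of 33297 features, 2904 negative controls, 1195 positive controls and 57 spike-ins were left out. The 95th percentile of the negative controls (9.60) lay above 95.7% of tested features and gave no usable background, so genes among the dimmest 30% of tested features (at or below 4.01) are named as such. The median of the negative controls was 4.19, so features not named as dim can still read near it. ZEB2, SNAI1, COL5A2 and the dimmer FN1 feature are among these. Arrays have no read depth, so precision here is set by their number, 2 a group.

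Group means were fitted to all 8 arrays with limma 3.58.1 in R 4.3.3 (4 residual and 3.86 prior degrees of freedom), and p-values were adjusted by Benjamini-Hochberg over all 29141 features. A call needed an adjusted p under 0.05, and between single groups also a change above 2-fold, as in the study's methods, which used analysis of variance. Array values, ranges or effects are given for canonical markers and for called genes. The same holds for EMT genes with an unadjusted p under 0.05 in either averaged comparison or between the extreme groups. CYR61 met none of these rules, and its array values are given besides them. Genes and lists were chosen with earlier results of these data known. Alternatives were a trended robust prior, no adjustment, 2 further normalisations, a filter on dim features, 1 feature per gene, other fold thresholds, the 4 arrays compared alone, analysis of variance, and single arrays left out. The fit was tested on simulated data.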

Additional observations from a re-analysis of the deposited data

How the results depend on the processing

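No paired analysis was possible because the table's columns carry no replicate number of the labels, so the planned replicate block was not run. For the knockdown average (2 EMT features called), an intensity trend with a robust prior called 7 and a fold change above 1.5 left 1. Unadjusted p-values called 11, where 11.3% of all features were below 0.05. How many of all features the trended robust prior called was not counted. The rise to 7 is thus not read as a result about the EMT genes. For the IL-13 average (3 called), unadjusted p-values called 5, where 8.73% of all features were below 0.05. A fold change above 1.5 lost TNC, and shifting the arrays to one median lost THBS1 (adjusted p = 0.0602 from limma). For knockdown cells with IL-13 against mock-treated control cells (2 called), limma on the 4 arrays alone and the adjusted analysis of variance each called 0. Their calls over all tested features were not counted. Leaving out 1 array at a time gave 0 to 0 for the knockdown average, 0 to 0 for the IL-13 average and 0 to 1 for the last comparison. Leaving out an array also removes a residual degree of freedom and leaves 1 array in its group, and the cause of these changes was not tested. In every comparison of 2 groups, these refits also called fewer of all tested features than the fit to all arrays. The changes are thus not read as a result about the EMT genes. Counts in the other comparisons were 0 throughout these leave-outs. For single named genes, 444 values under the other alternatives kept their side of the threshold in 416 cases, lost it in 7 and gained it in 21. Without single arrays, 380 of 432 kept their side and 52 lost it. No called value changed direction in either set.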
